A study of Homo sapiens with 4 samples.

Results

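The genes described here are 10 genes of lipoprotein and fatty acid handling in macrophages: the apolipoprotein genes APOE, APOC1 and APOC2, the lipid transfer gene PLTP, the lipase gene LPL, the scavenger receptor gene CD36, the fatty acid binding protein genes FABP4 and FABP5, and the nuclear receptor genes PPARG and NR1H3. They were picked by symbol from the 21865 symbols of the deposited expression tables, with earlier results of these data known, so their levels are given as a description. All 10 were found, and 10 reached 1 RPKM in at least 1 line, as did 12976 of all symbols, which are called measured. The data are RNA-seq of 4 cell lines of human acute myeloid leukemia, with 1 library per line. HL60 has promyelocytic features and KG1a resembles immature progenitors. The monocytic lines are THP-1 and MonoMac-1, both with an MLL-AF9 fusion. What each line is comes from general knowledge and not from the labels, which give only its name. All 4 were grown in medium with fetal bovine serum. The THP-1 sample is titled with an added "tr" of unexplained meaning, and the labels do not tell whether that culture was treated. With 1 library per line no difference had a replicate check, no test was run, and a line cannot be told apart from its culture or its library.

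Macrophages take up lipoproteins and fatty acids through scavenger receptors such as CD36, and can export cholesterol on particles that carry apolipoprotein E. The nuclear receptors LXRα, encoded by NR1H3, and PPARγ, encoded by PPARG, are sensors of oxidised cholesterol and of fatty acids that switch on genes of this traffic. APOE, APOC1, APOC2, LPL and PLTP are known targets of LXR in macrophages, and CD36, FABP4 and LPL are known targets of PPARγ. Levels are given as RPKM, the authors' abundance per kilobase, scaled to the library total, which allows genes to be compared with each other within a line. The length behind it is not the genomic span given below for each gene.

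APOE, APOC1 and APOC2 lie within 43.8 kb on chromosome 19, from the start of APOE to the end of APOC2, with APOC1P1 and APOC4 between APOC1 and APOC2. The upstream sequences of these 3 genes and of PLTP are shown because these genes were all highest in the same line and yet differed in how they were graded across the other 3. Each sequence is the 250 bases before the start, read 5′ to 3′ on the strand of the gene, from RefSeq on GRCh38.p14, a later build than the hg19 of the expression tables. They are chr19:44905546-44905795 (plus strand) for APOE, the farthest upstream of 3 starts in the table, chr19:44914422-44914671 (plus) for APOC1, chr19:44945801-44946050 (plus) for APOC2 and chr20:45912156-45912405 (minus) for PLTP, the farther upstream of 2 starts. Capitals mark matches to the 5 motifs that were searched on both strands.
APOE: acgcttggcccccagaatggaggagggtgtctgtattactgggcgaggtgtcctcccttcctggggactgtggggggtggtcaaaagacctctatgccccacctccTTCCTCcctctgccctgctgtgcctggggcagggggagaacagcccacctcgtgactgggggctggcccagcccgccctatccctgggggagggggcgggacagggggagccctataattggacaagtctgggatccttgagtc
APOC1: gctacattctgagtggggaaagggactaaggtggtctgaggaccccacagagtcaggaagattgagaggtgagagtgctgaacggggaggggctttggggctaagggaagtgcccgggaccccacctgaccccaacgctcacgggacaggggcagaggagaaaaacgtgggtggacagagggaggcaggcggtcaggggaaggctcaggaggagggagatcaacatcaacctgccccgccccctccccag
APOC2: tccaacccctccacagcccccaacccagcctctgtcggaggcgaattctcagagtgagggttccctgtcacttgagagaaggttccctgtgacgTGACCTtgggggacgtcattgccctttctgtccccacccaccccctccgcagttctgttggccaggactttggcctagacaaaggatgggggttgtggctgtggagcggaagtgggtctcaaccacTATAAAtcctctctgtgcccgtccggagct
PLTP: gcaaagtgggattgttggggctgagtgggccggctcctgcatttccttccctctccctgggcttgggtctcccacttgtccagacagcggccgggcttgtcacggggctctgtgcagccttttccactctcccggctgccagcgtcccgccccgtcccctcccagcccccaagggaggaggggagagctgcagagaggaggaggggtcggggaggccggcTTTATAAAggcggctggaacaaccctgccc
The motifs were the nuclear receptor core AGGTCA, 2 direct repeats of it that therefore overlap it (AGGTCANAGGTCA and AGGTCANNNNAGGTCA), the TATA box TATAAA and the PU.1 core GAGGAA. APOC2 held this receptor core at positions -156 to -151, counted back from the start, and a TATA box at -30 to -25. PLTP held a TATA box at -28 to -23, which overlaps a match on the other strand at -30 to -25. APOE held the PU.1 core at -144 to -139, and the APOC1 window held no match. Across all 35116 RefSeq windows of this length, 12.1% held this receptor core, 10.7% the TATA box, 23.6% the PU.1 core, 0.0171% the repeat with 1 base between and 0.0142% the repeat with 4. Among the other members, the farthest upstream window of PPARG held 2 receptor cores and that of NR1H3 held 1. That of CD36 held a PU.1 core and the letters of the TATA box, both on the other strand. In CD36 these TATA letters lay at -211 to -206, farther from the start than in APOC2 and PLTP. A match is a description of letters and not of binding.

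Sequenced bases on genes summed to 6.04 gigabases in THP-1, the shallowest library, and to 13.6 in MonoMac-1, the deepest. The second value of each entry was taken to be the number of sequenced bases falling on the gene. From it, 200 bases, the commonest low sum, were taken as 1 fragment to give 95% exact Poisson intervals, which cover counting error only and are approximate. HL60 carried a median of 2.71% of the KG1a level over 19 genes abundant in KG1a and nearly absent from THP-1 and MonoMac-1. Taking that share off HL60 moved the members little, from 12.5 to 11.7 RPKM for FABP5 and from 0.161 to 0.145 for APOE, with smaller relative steps for the other 8. The 14 matched monocyte and macrophage markers summed to 5148 RPKM in MonoMac-1 and 858 in THP-1, against 30.7 for HL60 and 10.2 for KG1a. LYZ alone gave 4837 of this in MonoMac-1 and 510.3 in THP-1, and without it THP-1 (347) stood above MonoMac-1 (311), HL60 (18.7) and KG1a (9.08). CD14, a defining monocyte marker, stood at 4.13 RPKM in MonoMac-1 and 1.28 in THP-1, and 9 of the 14 markers were higher in MonoMac-1. The other 5 were higher in THP-1: CSF1R (31.1 against 2.31), TREM2 (45.4 against 1.35), CCR2 (68.3 against 37.2), ITGAM (3.59 against 1.75) and MARCO (1.73 against 0.673). The promyelocyte markers did not set HL60 apart: their sum was lower there (5596 RPKM) than in THP-1 (6493) and MonoMac-1 (6913), and of the 5 genes only MPO was highest in HL60, at 4610.

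Across the lines these genes formed a ladder with MonoMac-1 at the top and, for most, KG1a at the bottom. The median of the 10 genes was 69.1 RPKM for MonoMac-1, 10.1 for THP-1, 3.11 for HL60 and 0.0416 for KG1a, while the median measured gene stood at 8.96, 8.37, 7.74 and 8.85. Each of the 10 genes was highest in MonoMac-1, as were 24.9% of all measured genes. NR1H3, at nearly equal levels in the monocytic lines, moved to THP-1 under median-of-ratios or quantile scaling, which left 9. KG1a was the lowest line for 6 of them (29.7% of all measured genes): APOC1, APOC2, PLTP, LPL, CD36 and PPARG. Members at 1 RPKM or more numbered 10 in MonoMac-1, 9 in THP-1, 6 in HL60 and 2 in KG1a. Of the 12976 measured genes, 11240, 11346, 10569 and 10944 reached that level in these lines, in the same order. The summed monocyte markers had the order of these medians with LYZ but not without it, when THP-1 came first; their part in the levels was not tested. In RNA from a whole culture, fewer cells of a type and less RNA per cell cannot be told apart.

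**Figure D1:**
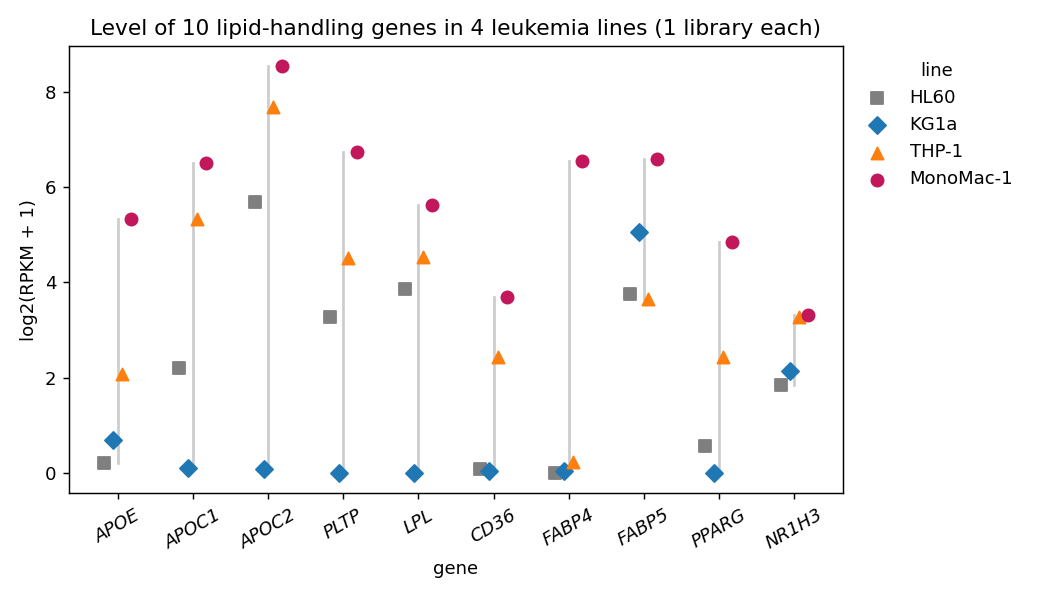
Level of each gene as log2(RPKM + 1) (vertical axis) in the 4 lines, with 1 point per library and a grey line from the lowest to the highest. MonoMac-1 is the highest point of every gene, for NR1H3 by a margin that other scalings reverse, and KG1a lies near 0 for all but FABP5, NR1H3 and APOE, the last at 0.608 RPKM.

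Of the 3 apolipoprotein genes APOC2 was the most abundant in each line but KG1a. There APOC2 and APOC1 both lay below APOE, on too few fragments to be ordered. APOC2 (chromosome 19, 45449243 to 45452818, hg19) encodes apolipoprotein C-II, the cofactor that lipoprotein lipase needs. It was measured at 370.9 RPKM in MonoMac-1 (95% interval 366 to 376), 205 in THP-1 (200 to 211), 50.8 in HL60 (48.5 to 53.2) and 0.0529 in KG1a, where it rested on 2.33 fragments. Among the 12976 measured genes it ranked 119 in MonoMac-1, 221 in THP-1, 1385 in HL60 and 12032 in KG1a. No 2 of these 4 levels shared an interval, and HL60, which is not a monocytic line, carried it well above the KG1a level. MonoMac-1 exceeded THP-1 by 1.81 times (interval 1.75 to 1.86) and THP-1 exceeded HL60 by 4.04 times (3.83 to 4.26).

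APOC1 (chromosome 19, 45417921 to 45422606) encodes apolipoprotein C-I, an inhibitor of lipoprotein uptake and of the plasma transfer protein CETP. Its levels were 89.7 RPKM in MonoMac-1 (86.7 to 92.9), 39.3 in THP-1 (36.3 to 42.5), 3.59 in HL60 (2.85 to 4.46) and 0.0711 in KG1a, from 2.0 fragments. The order of the lines was thus that of APOC2, but HL60 lay farther down: THP-1 exceeded it by 10.9 times (8.69 to 13.8). Within a line APOC2 was 4.13 times as abundant as APOC1 in MonoMac-1, 5.22 times in THP-1 and 14.2 times in HL60.

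APOE (chromosome 19, 45409039 to 45412650) encodes apolipoprotein E, the ligand through which remnant particles bind receptors of the LDL receptor family. It stood at 39.5 RPKM in MonoMac-1 (38.2 to 40.8), 3.23 in THP-1 (2.70 to 3.83), 0.608 in KG1a (0.441 to 0.817) and 0.161 in HL60 (0.0753 to 0.303). Unlike APOC1 and APOC2, APOE was low in THP-1, where MonoMac-1 exceeded it by 12.2 times (10.3 to 14.5), and HL60 lay below KG1a. The ratio of APOC1 to APOE was 2.27 in MonoMac-1 and 12.2 in THP-1; APOE in HL60 rested on 9.38 fragments, too few for a ratio. The 3 genes summed to 500.1 RPKM in MonoMac-1, 248 in THP-1, 54.6 in HL60 and 0.732 in KG1a.

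The flanking genes did not follow them. TOMM40, a mitochondrial import gene that ends 2.09 kb before APOE, was highest in HL60 at 125.0 RPKM and lowest in THP-1 at 50.3, with 93.7 in KG1a and 87.1 in MonoMac-1. PVRL2, an adhesion gene on the far side of TOMM40, was highest in KG1a at 46.5 RPKM and lowest in HL60 at 6.42, with 11.4 in MonoMac-1 and 15.8 in THP-1. CLPTM1, downstream of APOC2, ranged from 32.1 RPKM in HL60 to 62.8 in KG1a. APOC4, the apolipoprotein gene that starts between APOC1 and APOC2, stayed at or under 0.123 RPKM in every line, and so did the pseudogene APOC1P1 at or under 0.120. Both were highest in MonoMac-1, from 5.94 and 8.83 fragments, too few to order the lines. How reads of the near-identical APOC1P1 or of transcripts that join APOC4 and APOC2 were assigned is not given in the sources used here.

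**Figure D2:**
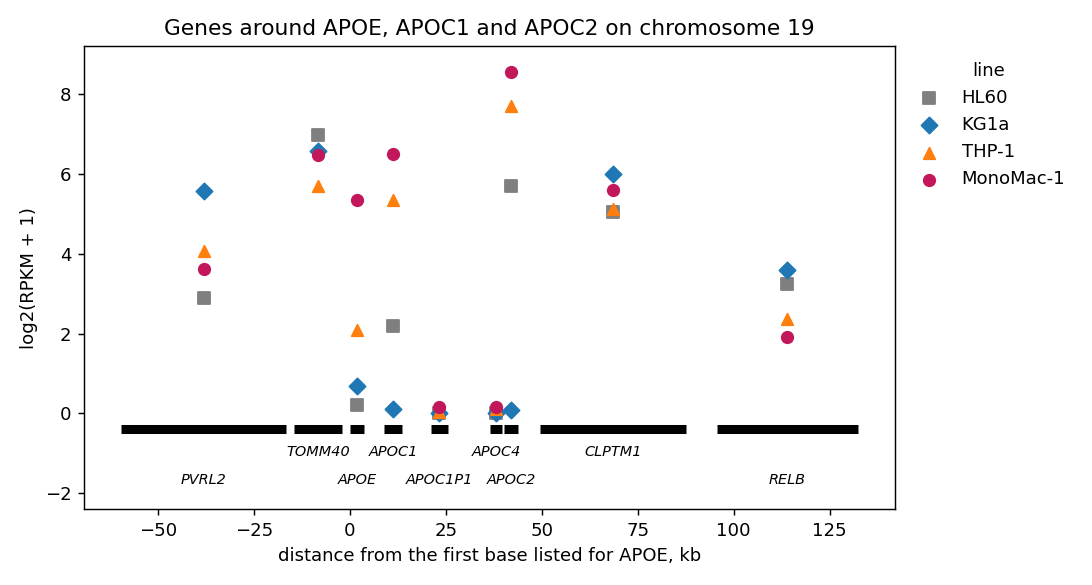
Level as log2(RPKM + 1) (vertical axis) of the genes around APOE against the distance in kb from its first listed base, with black bars for the extent of each gene and 1 point per line. APOE, APOC1 and APOC2 are the genes with MonoMac-1 on top and a spread of over 5 log2 units, while TOMM40, CLPTM1 and RELB stay within narrower ranges.

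PLTP (chromosome 20, 44527459 to 44540786) encodes phospholipid transfer protein, which moves phospholipids between lipoproteins. Its levels were 107 RPKM in MonoMac-1 (105 to 108), 21.7 in THP-1 (20.5 to 22.9), 8.65 in HL60 (8.03 to 9.31) and 0.00501 in KG1a, from 0.52 fragments. MonoMac-1 stood 4.92 times above THP-1 (4.64 to 5.21), and THP-1 2.51 times above HL60 (2.29 to 2.75).

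LPL (chromosome 8, 19796582 to 19824770) encodes lipoprotein lipase, which frees fatty acids from triglyceride-rich particles. It reached 48.5 RPKM in MonoMac-1 (47.7 to 49.3), 22.1 in THP-1 (21.3 to 22.9) and 13.5 in HL60 (12.9 to 14.0), and was listed at 0 in KG1a. THP-1 exceeded HL60 by 1.64 times (1.55 to 1.73), and MonoMac-1 exceeded THP-1 by 2.20 times (2.11 to 2.29). The lipase and its cofactor were thus present together in 3 lines and both near or at 0 in KG1a. APOC2 was 7.64 times as abundant as LPL in MonoMac-1, 9.30 times in THP-1 and 3.77 times in HL60.

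CD36 (chromosome 7, 80231504 to 80308593), the scavenger receptor and fatty acid transporter, was the lowest but 1 of the 10 genes in MonoMac-1, at 11.9 RPKM (11.6 to 12.2). It stood at 4.40 RPKM in THP-1 (4.10 to 4.71), 0.0586 in HL60 (0.0333 to 0.0957) and 0.0302 in KG1a (0.0145 to 0.0555). The 2 low lines did not differ beyond counting error, at a ratio of 1.94 (0.879 to 4.29), and both monocytic lines lay well above them. THP-1 exceeded HL60 by 75.0 times (45.5 to 124), a ratio that rests on 15.7 fragments in HL60.

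The fatty acid binding proteins are cytosolic carriers, and the 2 members had different patterns. FABP4 (chromosome 8, 82390732 to 82395473), the carrier of adipocytes and macrophages, was measured at 93.0 RPKM in MonoMac-1 (90.7 to 95.3) and at 0.172 in THP-1 (0.0557 to 0.400), from 5.0 fragments. It stood at 0.0237 RPKM in KG1a, from 1.21 fragments, and was listed at 0 in HL60. It was therefore abundant in 1 line, where it ranked 735 of the measured genes, and at trace level in the other 3.

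FABP5 (chromosome 8, 82192785 to 82197008), the epidermal type of carrier, starts 198 kb from FABP4. It was measured in all 4 lines: 94.9 RPKM in MonoMac-1 (92.3 to 97.6), 32.2 in KG1a (30.5 to 34.0), 12.5 in HL60 (11.3 to 13.8) and 11.5 in THP-1 (10.2 to 13.0). HL60 and THP-1 did not differ beyond counting error (ratio of THP-1 to HL60 0.921, interval 0.789 to 1.08). KG1a stood 2.57 times above HL60 (2.30 to 2.87), which made FABP5 the most abundant of these genes in KG1a. In MonoMac-1 the 2 carriers were at nearly equal level, with a ratio of FABP5 to FABP4 of 1.02. FABP5 has near-identical pseudogenes, among which reads may be split; FABP5P3 was listed at or under 0.0671 RPKM.

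PPARG (chromosome 3, 12329349 to 12475855) was measured at 27.98 RPKM in MonoMac-1 (27.2 to 28.8), 4.39 in THP-1 (3.94 to 4.88) and 0.491 in HL60 (0.370 to 0.640), and was listed at 0 in KG1a. MonoMac-1 exceeded THP-1 by 6.38 times (5.72 to 7.11), and THP-1 exceeded HL60 by 8.93 times (6.72 to 11.9). No intervals of the 3 lines with a value overlapped.

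NR1H3 (chromosome 11, 47270458 to 47290401) varied least of the 10 genes. It stood at 8.93 RPKM in MonoMac-1 (8.45 to 9.44), 8.73 in THP-1 (8.02 to 9.49), 3.42 in KG1a (3.08 to 3.78) and 2.62 in HL60 (2.30 to 2.98). The 2 monocytic lines did not differ beyond counting error (ratio of MonoMac-1 to THP-1 1.02, interval 0.925 to 1.13), and the lower of them was 2.55 times KG1a (2.24 to 2.91). PPARG was 3.13 times as abundant as NR1H3 in MonoMac-1 and 0.503 times in THP-1, so the more abundant of the 2 receptors differed between the monocytic lines.

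Which of these genes set THP-1 and MonoMac-1 apart from HL60 and KG1a was read from the gap between the lower value of the first pair and the higher value of the second, on the log2(RPKM + 1) scale. This scale understates the change of weakly expressed genes. A gap of 2, or 4-fold, was reached by 2 of the 10 genes, APOC1 (gap 3.13) and CD36 (2.35), against 1.39% of all measured genes. None was lower by that rule (0 of 10; 0.331% of all genes). The genes just outside were APOC2, at 1.99, and PPARG, at 1.85. By any margin 9 were higher in both monocytic lines (22.1% of all genes), FABP4 by only 0.19, and 0 were lower (19.6%). FABP5 was the exception, with KG1a above THP-1. The count of 2 depended on settings: it was 5 with a pseudocount of 0.1 (3.35% of all genes) and 1 with a pseudocount of 5 (0.455%), 6 without HL60 (4.37%) and 7 without THP-1 (3.30%). Fusion, lineage and single lines cannot be told apart in this split.

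Between the monocytic lines 5 of the 10 genes were at least 4-fold lower in THP-1 than in MonoMac-1 (2.27% of all measured genes) and 0 were higher (2.03%). These were FABP4, with a difference of -6.33 on the log2(RPKM + 1) scale, APOE (-3.26), FABP5 (-2.94), PPARG (-2.43) and PLTP (-2.25). For CD36, APOC1, LPL and APOC2 the differences were -1.26, -1.17, -1.10 and -0.85. That of NR1H3 was -0.03 and turned to 0.07 under quantile scaling. APOE and FABP4 also stood at least 8-fold above each of the other 3 lines in MonoMac-1, a rule met by 0.416% of all genes. In any 1 line, the same 8-fold rule was met by 2 members and by 2.14% of all genes. That count of 2 became 1 (FABP4) with a pseudocount of 5 (0.570% of all genes). It was 6 without THP-1 (3.02%), and 1 without MonoMac-1 (2.98%), when APOC1 in THP-1 met the rule.

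**Figure D3:**
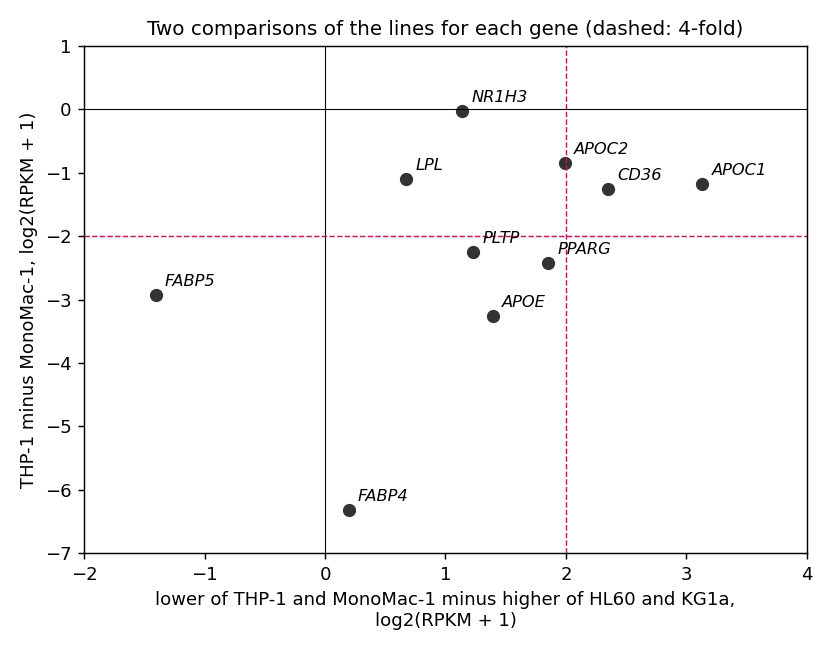
Each gene by its gap between the pairs of lines (horizontal axis) and its difference between THP-1 and MonoMac-1 (vertical axis), both on the log2(RPKM + 1) scale, with dashed lines at 4-fold. APOC1 and CD36 lie right of the vertical dashed line and APOC2 just left of it, while FABP4, APOE, FABP5, PPARG and PLTP lie below the horizontal one.

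HL60 and KG1a differed at least 4-fold in 4 of the genes, each higher in HL60 (4.10% of all measured genes): APOC2 (difference 5.62 on the log2(RPKM + 1) scale), LPL (3.85), PLTP (3.26) and APOC1 (2.10). The opposite direction held 0 (6.20%). With a pseudocount of 5 only APOC2 remained (3.14% of all genes in either direction). HL60 thus carried the secreted lipoprotein genes other than APOE, while its levels of CD36, FABP4 and PPARG stayed under 0.5 RPKM.

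Among the measured genes with at least 10 RPKM in some line, the profiles nearest to each member over the 4 lines were found by the distance between log2(RPKM + 1) values after each gene's mean was taken off. With 4 points many genes lie near any profile, so these are descriptions. Nearest to APOE were FEZ1 (distance 0.33), LTK (0.42) and LOC84989 (0.48). Nearest to APOC1 were CLEC11A (0.65), METTL7B (0.68) and CEBPD (0.84). For APOC2 they were RNASE2 (0.75), CTSZ (0.87) and then CD81. PLTP lay closest to STAR (0.72), HES6 (0.75) and LRG1 (0.79), and LPL to RBM23 (0.55), ALDH3B1 (0.55) and HTATIP2 (0.61). CD36 was nearest to GPR18 (0.28), the complement gene C2 (0.31) and SLC1A3 (0.39), and PPARG to CHST13 (0.34), PRLR (0.34) and CD180 (0.41). FABP4 had SFRP2 (0.50), HP (0.71) and CADM1 (0.83) as neighbours, of which SFRP2 stood at 132 RPKM in MonoMac-1 and under 0.05 in the other lines. FABP5 had DNAJB4 (0.39), MIR17HG (0.44) and SERPINB1 (0.48), all higher in KG1a than in HL60. The nearest member of APOE was PPARG, at 0.95, which ranked 14 among all these genes by distance. For the matched members, the rank of the nearest member ran from 12 (LPL for PLTP) to 4526 (APOE for FABP5). NR1H3 stayed under 10 RPKM and was not matched.

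Other genes of these pathways were read as lists, written with earlier results of these data known. The median difference of THP-1 and MonoMac-1 from HL60 and KG1a (pair means, log2(RPKM + 1)) was 3.31 for the 10 genes and 0.02 for all measured genes. Of 18 other apolipoproteins 6 were measured, with 0 at least 4-fold higher or lower by the pair rule and a median of -0.66. The highest single level was that of CLU, at 31.8 RPKM in KG1a, 7.19 in MonoMac-1, 1.99 in THP-1 and 0.885 in HL60. Of 15 measured lipoprotein and scavenger receptors 1 was higher, the lysosomal glycoprotein CD68 (219 RPKM in MonoMac-1, 170.0 in THP-1, 4.34 in HL60, 0.596 in KG1a), and 0 were lower (median 0.05). STAB1, a scavenger receptor and 1 of the 19 genes behind the KG1a share, reached 125 RPKM in KG1a, with 3.31 in HL60, 0.176 in MonoMac-1 and 0.0158 in THP-1. STAB1 was lower by the rule under quantile scaling and with a pseudocount of 0.1, and with the latter MARCO was also higher.

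Of 10 measured lipases and regulators 1 was higher, PNPLA3 (MonoMac-1 8.52 RPKM, THP-1 9.74, HL60 0.991, KG1a 0.443), and 0 were lower (median 0.09). PNPLA3, under 10 RPKM, falls outside the naming rule and was named after its values were seen. The highest single level was that of LIPA, the lysosomal acid lipase, at 47.6 RPKM in KG1a and 23.0 to 27.2 in the other lines, in each of which PNPLA2, the adipose triglyceride lipase, was above it (MonoMac-1 41.1, THP-1 31.7, HL60 24.7). PNPLA2 was also named after its values were seen. Of 6 measured lipid transfer genes 0 were higher or lower (median 0.18). Of 3 measured relatives of the FABP family 1 was higher, the retinoic acid carrier CRABP1, with 28.1 RPKM for THP-1, 5.61 for MonoMac-1 and 0.0263 for HL60, and listed at 0 for KG1a (median of the 3 genes -0.05). Of 10 fatty acid uptake and activation genes 1 was higher, the fatty acid transporter family gene SLC27A3 (12.9 and 12.1 RPKM in THP-1 and MonoMac-1 against 2.23 and 1.28, gap 2.02), and 0 were lower (median -0.03). SLC27A3 no longer met the rule under median-of-ratios or quantile scaling, PNPLA3 under quantile scaling, and PNPLA3, CRABP1 and SLC27A3 with a pseudocount of 5.

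Of 15 listed nuclear receptors, cofactors and myeloid factors 13 were measured, RXRG and PPARGC1A not. Of the 13, 0 were 4-fold higher or lower by the pair rule (median 0.10). RXRA, the partner of LXR and PPAR, stood at 39.3 RPKM in KG1a, 35.5 in THP-1, 25.1 in HL60 and 19.6 in MonoMac-1. NR1H2, which encodes LXRβ, stood at 30.2 in HL60, 27.5 in MonoMac-1, 17.8 in KG1a and 14.2 in THP-1. PPARA was at 0.00571 RPKM in KG1a and at 1.11 to 2.91 in the other lines. The myeloid factor SPI1 was at 1.41 RPKM in KG1a, against 168 in MonoMac-1, 117 in HL60 and 98.9 in THP-1. These genes were named after their values were seen. The highest single level of the list was that of CEBPA, a myeloid transcription factor, with 13.7 RPKM for KG1a, 105 for HL60, 159 for MonoMac-1 and 185 for THP-1. Of 9 LXR targets, NR1H3 included, 0 were 4-fold higher or lower (median 0.83). With a pseudocount of 0.1, 2 were 4-fold higher (3.35% of all genes). By any margin 5 were higher (22.1% of all genes) and 2, ABCG1 and SCD, were lower (19.6%). ABCA1, the cholesterol exporter, had another order of lines, with 15.0 RPKM in THP-1 but 0.991 in MonoMac-1, close to the 0.927 of HL60 and above the 0.447 of KG1a. ABCG1, another sterol exporter, was highest in KG1a at 18.0 RPKM and stood at 0.00891 in MonoMac-1.

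Of 9 measured PPAR targets 1 was higher, CD36 itself, and 0 were lower (median 0.50). The most abundant was HADHA, an enzyme of mitochondrial fatty acid oxidation, between 92.3 RPKM in KG1a and 256 in MonoMac-1. Of 11 measured lipid droplet and cholesterol ester genes 1 was higher, G0S2, an inhibitor of adipose triglyceride lipase. G0S2 stood at 14.3 RPKM in MonoMac-1 and 8.68 in THP-1 and was listed at 0 in HL60 and KG1a. By the rule 0 were lower, and the median was 1.07. By any margin 8 of the 11 were higher (22.1% of all genes) and 0 lower (19.6%). MonoMac-1 was the highest line for 8 of them (24.9% of all genes). With a pseudocount of 5 neither CD36 nor G0S2 met the rule, and with a pseudocount of 0.1 CYP27A1 met it beside CD36. PLIN4, a droplet coat protein, had the pattern of FABP4, at 23.8 RPKM in MonoMac-1 and 0.133 to 0.186 in the other lines.

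**Figure D4:**
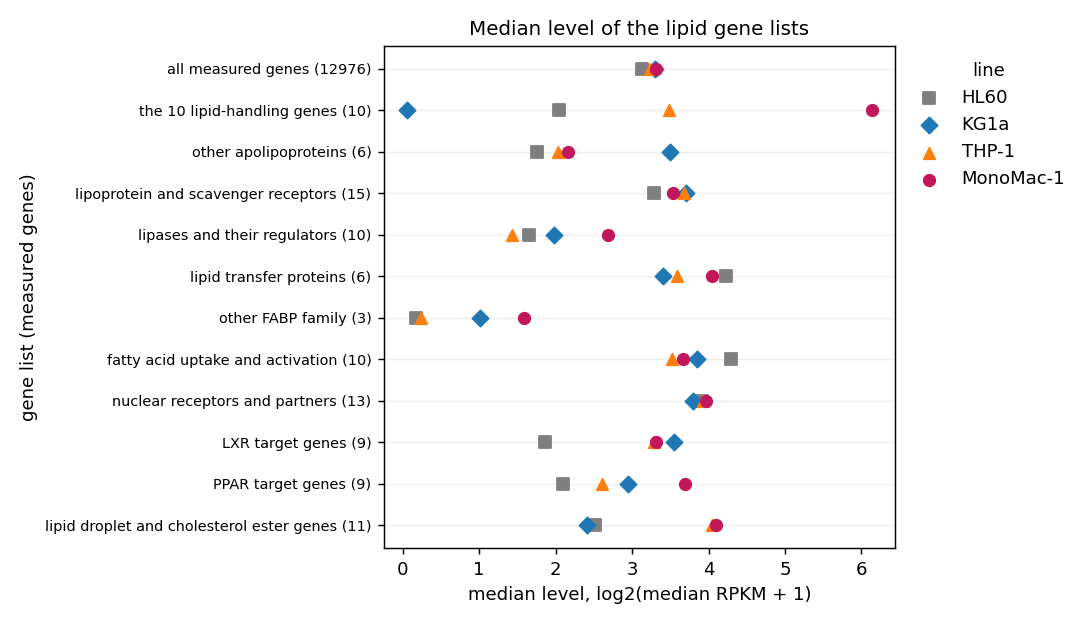
Median RPKM of each gene list in each line, as log2(median RPKM + 1) (horizontal axis), with the number of measured genes in brackets and 1 point per line. The 10 lipid-handling genes run from 0.0416 RPKM in KG1a to 69.1 in MonoMac-1, while the medians of all measured genes lie between 7.74 and 8.96.

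FABP4, PPARG, LPL, CD36 and PLIN4 are also genes of adipocytes, and apolipoproteins are genes of hepatocytes, so markers of other cell types were read in the same libraries. Of 8 adipocyte markers 2 reached 1 RPKM in MonoMac-1, PLIN4 and LIPE, while ADIPOQ stood at 0.00106 RPKM, PLIN1 at 0.0171 and LEP was listed at 0. The adipocyte list summed to 26.1 RPKM in MonoMac-1, 3.23 in KG1a, 1.18 in THP-1 and 0.274 in HL60. Most of this came from PLIN4 in MonoMac-1 (23.8) and from LIPE in KG1a (2.83). Of 10 hepatocyte markers 0 reached 1 RPKM in MonoMac-1, where ALB stood at 0.0112 and APOB at 0.0044 RPKM, and the list summed to 0.801 to 2.72 RPKM across the lines. Of 5 fibroblast markers 0 reached 1 RPKM in any line. The endothelial list summed to 3.26 to 34.3 RPKM, nearly all of it in MonoMac-1 from PECAM1 (34.2), which myeloid cells also express.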

How the data were processed

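Per the labels' protocols, TRIzol extracts were turned into Illumina RNA libraries. CASAVA 1.8.2 and the hg19 build appear in the submitters' processing notes. For the aligner, annotation, strand handling and filters, nothing is given in the sources used here. For each line the authors deposited RPKM values and a whole-number coverage signal without a stated unit, for 21893 entries. The signal was read as sequenced bases per gene. Low sums were exact multiples of 100 in 41.5% to 46.7% of cases in 3 libraries and in 9.99% in MonoMac-1.

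For the 28 repeated symbols the entry with the highest mean was kept. Values were compared as log2(RPKM + 1) among genes at 1 RPKM or more in at least 1 line, without a test, as neither value counts reads. Intervals are exact Poisson (levels) or normal on the log scale (ratios), and ratios are given where both values had at least 10 fragments. Python 3.11.15, numpy 2.4.6, pandas 2.3.3 and scipy 1.17.1 were used. Members and lists were chosen with earlier results of these data known. The naming rule covered the members, their nearest profiles and the neighbours of APOE. Per list it allowed the highest gene and up to 4 genes at 10 RPKM or more. These 4 had to be 4-fold apart by the pair rule or 8-fold above the other lines. The highest gene of the lipid transfer, fatty acid uptake and lipid droplet lists was not named. A few genes outside the rule were named after their values were seen. Of the listed symbols C19orf80, MRC1 and TRBC1 were not matched. Markers of B and T cells, erythroid, promyelocytic and progenitor cells were also read. Alternatives were other pseudocounts, filters and scalings, removal of the KG1a share from HL60 and leaving out each line. RefSeq promoter windows were found for 7 members.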

Additional observations from a re-analysis of the deposited data

How the results depend on the processing

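The pseudocount and the set of lines moved the counts of genes past a fold. The 2 genes at least 4-fold higher in both monocytic lines became 5 with a pseudocount of 0.1 and 1 with a pseudocount of 5, and 2 to 7 when each line was left out. With a pseudocount of 5 the 2 genes at least 8-fold above the other lines became 1, and the 4 genes at least 4-fold apart between HL60 and KG1a became 1. Leaving out each line gave 1 to 6 genes for the 8-fold rule, an alternative added after the data were seen. The count lower in both monocytic lines was 0 under every alternative. The other alternatives (filters, median-of-ratios and quantile scaling, KG1a share removed) kept the 5 counts within 1.5 times, and 9 genes stayed higher in both monocytic lines by any margin. MonoMac-1 was the highest line for 9 or 10 genes. Without LYZ, an alternative added after the data were seen, the summed monocyte markers of MonoMac-1 minus THP-1 turned from 4290.0 to -36.4 RPKM. No paired analysis was possible because each line has 1 library. Levels under about 10 fragments (APOC1, APOC2, PLTP and FABP4 in KG1a, FABP4 in THP-1, APOE in HL60) are poorly set by depth.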

Other observations

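Markers of other blood lineages were read as values only. The 4 matched T cell markers summed to 46.2 RPKM in KG1a, 3.52 in HL60 and under 0.4 in THP-1 and MonoMac-1. The 5 promyelocyte markers summed to 23.9 RPKM in KG1a, the line that was lowest for 6 of the 10 lipid-handling genes. The 5 progenitor markers summed to 503 RPKM in KG1a and to at most 14.1 in the other lines. CD34 alone gave 493.8 of this in KG1a and 12.9 in HL60. Like the 19 genes behind the KG1a share, CD34 was nearly absent from THP-1 (0.0205) and MonoMac-1 (0.253). That share was not taken off its HL60 value here. SPINK2 (7.01), CRHBP (2.26) and PROM1 (0.403) were also highest in KG1a. KIT went the other way, at 0.00634 RPKM in KG1a and 9.06 in THP-1. The 4 B cell markers summed to 0.514 to 6.92 RPKM, and the 4 erythroid markers to 0.758 to 16.3, highest in THP-1 through HBB at 15.2.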
